A study of Arabidopsis thaliana with 16 samples.

Results

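The 4 wild-type (WT) libraries primed with random hexamers are described here, out of 16 libraries of semi-in vivo pollen tubes of Arabidopsis thaliana. They were chosen by their labels alone, as all WT libraries with this priming, and no measured value entered the choice. The other 12 are 4 WT libraries primed with oligo(dT), and 4 libraries with each priming from paps1-1, a mutant of the poly(A) polymerase gene PAPS1. The WT plants are labelled ecotype Col-0 and carry no mutant allele in their labels. Per the labels' protocols, each RNA sample was divided between the 2 primings, so a WT random-hexamer library and the WT oligo(dT) library of the same number share their RNA. The labels do not say which plants or how many tubes a replicate holds, and spread between these libraries may be partly technical. The files are read counts per gene, and no treatment or time point is labelled.

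A pollen tube carries the sperm cells from the stigma to the ovule, and it grows only at its tip. Its wall is made of soft, newly secreted pectin at the tip and of stiffer pectin and callose along the shank, and receptor kinases at the tip monitor the wall through secreted RALF peptides. In a semi-in vivo culture, pollen is placed on a cut pistil and tubes are collected where they emerge from the cut end, so tissue of the pistil is the other material that such a sample can hold.

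The WT random-hexamer libraries held 2900532, 3959962, 628358 and 2024225 gene counts in replicates 1 to 4. These were 44.9%, 36.4%, 2.71% and 25.9% of all reads, and in replicate 3 76.9% of reads did not map. Replicate 3 therefore has the least depth, and 1 count in it is worth more than in the others. A gene with no count could still be present at up to 1.03, 0.758, 4.77 and 1.48 counts per 1000000 gene counts (CPM) in replicates 1 to 4, the level of 3 counts, which covers counting error only. Ribosomal RNA genes took 0.850%, 0.107%, 8.15% and 1.61% of gene counts. No 2 of the 4 libraries agreed within sampling noise, since a chi-square test of their counts over genes gave 39.9 to 66.5 per degree of freedom. None was therefore taken for a library deposited more than once, which does not show that they came from separate plants.

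At least 1 count was found for 15780, 16230, 6043 and 9691 of the 33323 genes in replicates 1 to 4. Thinned to 628358 gene counts each, the libraries held 13975, 15344, 6043 and 9462 genes. Together the 4 libraries had a count for 19332 genes, and 4228 genes had one in all 4. Those 4228 genes carried 86.0% of the counts, while 13991 genes had no count in any library.

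The counts were concentrated in few genes. The 10 most counted genes of each library took 17.8%, 15.6%, 25.9% and 14.97% of its gene counts in replicates 1 to 4. The 100 most counted took 47.1%, 38.2%, 49.2% and 36.5%. The number of genes that together made up 50% of counts was 123, 286, 108 and 329. Without structural RNA genes it was 126, 286, 150 and 349. Replicates 1 and 3 were thus the more concentrated libraries and replicates 2 and 4 the less concentrated. Without structural RNA genes, the order of replicates 1 and 3 turned round in this number and in the share of the 100 most counted genes (46.8% and 44.9%). It did not turn round in the share of the 10 most counted genes (17.9% and 21.1%). Over the mean of the 4 libraries, 10 genes stood at 10000 CPM or more and held 17.5% of counts. At 1000 CPM or more, 119 genes held 44.2%. In every library, only 5 genes stood at 10000 CPM or more, and they held 8.87% of counts. The effective number of genes, the exponential of the Shannon entropy of the counts, which equals the number of genes when all are counted alike, was 1126, 2023, 766 and 1965.

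**Figure D1:**
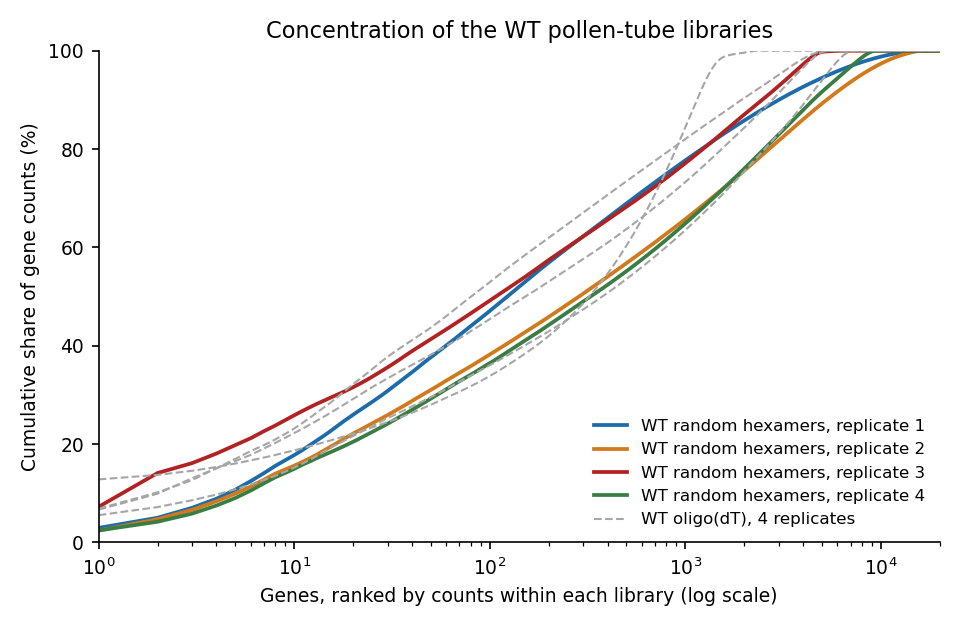
Cumulative share of gene counts (%) against genes ranked within each library (log scale), for the 4 WT random-hexamer libraries in colour and the 4 WT oligo(dT) libraries as dashed grey lines. Among the random-hexamer lines, replicate 3 starts highest, at 7.25% of counts for its top gene, and replicates 2 and 4 run lowest at 1000 genes, with 65.8% and 64.9% of counts.

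The concentration was compared with the matched WT oligo(dT) libraries. The 10 most counted genes took 18.6% ± 5.02 of counts with random hexamers and 19.8% ± 3.63 with oligo(dT) (SD, n = 4 pairs), and this share was higher with random hexamers in 1 of 4 pairs (two-sided exact sign-flip permutation test, p = 0.875, Benjamini-Hochberg adjusted p = 0.875 over 6 tests). For the 100 most counted genes the shares were 42.7% ± 6.32 with random hexamers and 42.1% ± 8.83 with oligo(dT), and 2 of 4 pairs were higher with random hexamers (exact permutation p = 0.875, adjusted p = 0.875). The effective number of genes was 1470 ± 623 with random hexamers and 1048 ± 526 with oligo(dT), higher with random hexamers in 4 of 4 pairs. That difference of 422 genes had an exact permutation p of 0.125, the smallest that 4 pairs can give, and an adjusted p of 0.343. It was 336 with all libraries thinned to 70006 gene counts, and 215 without replicate 2. When reads were counted without regard to strand it was 192, with an exact permutation p of 0.75, so not all 4 pairs were higher there. The oligo(dT) library of replicate 3 held only 70006 gene counts.

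The paps1-1 random-hexamer libraries ranged from 7.46% to 17.4% in the share of their 10 most counted genes, against 14.97% to 25.9% in the WT random-hexamer libraries. The means were 12.1% ± 5.08 in paps1-1 and 18.6% ± 5.02 in WT (SD, n = 4 each, two-sided exact permutation p = 0.171, adjusted p = 0.343). The 100 most counted genes took 32.1% ± 12.6 in paps1-1 and 42.7% ± 6.32 in WT (exact permutation p = 0.257, adjusted p = 0.386). The effective number of genes was 3307 ± 1962 in paps1-1 and 1470 ± 623 in WT (exact permutation p = 0.171, adjusted p = 0.343). In paps1-1, replicates 2 and 3 had effective numbers of 5080 and 4904 and replicates 1 and 4 had 1327 and 1918, so the groups overlapped. No difference in concentration between them passed the test. The smallest exact permutation p that 4 against 4 libraries can give is 0.0286, which cannot bring an adjusted p under 0.05 over these 6 tests.

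The 20 genes with the highest counts, apart from structural RNA genes, included enzymes of pectin, wall proteins, a proton pump, an F-box protein, a ubiquitin ligase and uncharacterised proteins. A CPM value is a share of counts and is not corrected for gene length. SKS13 (AT3G13400), a protein related to the cupredoxin SKU5, had 29609, 23367, 19526 and 24431 CPM in replicates 1 to 4. It was the most counted gene of replicates 1 and 4 and averaged 24233 CPM ± 4158 (SD, n = 4). A glyoxal oxidase-related gene, AT5G19580, averaged 17065 CPM ± 3834, and the uncharacterised gene AT3G28750 averaged 16656 CPM ± 1660. The pectate lyase family gene AT3G01270, whose family cuts pectin chains, had 18410, 13787, 14145 and 16452 CPM. VANGUARD1 (VGD1, AT2G47040), a pectin methylesterase needed for tube growth in the style, had 17656, 7810, 20063 and 15261 CPM and was lowest in replicate 2. The beta-galactosidase gene BGAL11 (AT4G35010) was the steadiest of the leading genes, at 16025, 15592, 14158 and 14576 CPM.

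The 4 leucine-rich repeat extensins LRX8 to LRX11, wall proteins that bind RALF peptides, all belonged to the 20 highest genes. LRX8 (AT3G19020) had 20553, 23919, 7575 and 12315 CPM in replicates 1 to 4 and was the most counted gene of replicate 2. LRX9 (AT1G49490) had 14805, 17555, 5312 and 8183 CPM, LRX10 (AT2G15880) had 10005, 12221, 3617 and 4537 CPM and LRX11 (AT4G33970) had 7785, 8500, 4482 and 4134 CPM. Each of the 4 genes was higher in both replicates 1 and 2 than in both replicates 3 and 4. The proton pump gene AHA8 (AT3G42640), which energises the plasma membrane, had its highest value, 11083 CPM, in replicate 3, and its lowest, 7525 CPM, in replicate 2. Next to each other in the order of mean CPM, no 2 of the 20 highest genes had ranges that lay apart, so the order among neighbours is not resolved by these 4 libraries.

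**Figure D2:**
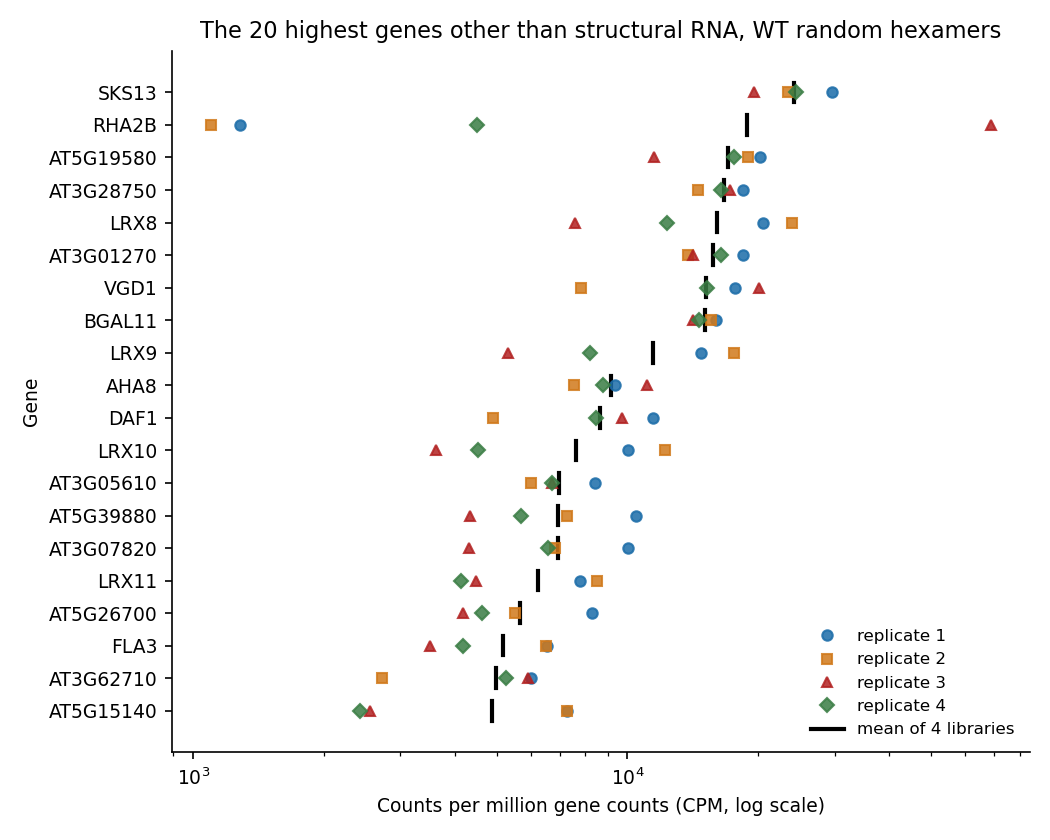
CPM (log scale) of the 20 highest genes other than structural RNA genes in each WT random-hexamer library, by symbol or locus, with the mean as a black bar. RHA2B is spread from 1099 CPM to 68668 CPM, with its highest value in replicate 3, while BGAL11 lies between 14158 and 16025 CPM.

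RHA2B (AT2G01150), a RING-type ubiquitin ligase gene, had the second highest mean among genes other than structural RNA, but not a shared level. It had 1280, 1099, 68668 and 4504 CPM in replicates 1 to 4, and without replicate 3 its mean was 2295 CPM ± 1916 (SD, n = 3). The 18S ribosomal RNA gene AT3G41768 behaved likewise, with 8341, 904, 72503 and 15392 CPM, and averaged 8212 CPM ± 7245 without replicate 3. Reads that map to several places are not in the counts, so genes of the repeated ribosomal RNA arrays are understated.

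Of the top 10 genes of each library, 7 were shared by all 4: SKS13, AT3G28750, AT5G19580, AT3G01270, LRX8, VGD1 and BGAL11. Of the top 100, 71 were shared by all 4, and of the top 1000, 500 were.

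Genes were also ordered by level per length, as CPM per kilobase of coding sequence, which by its construction raises short genes. Leaving RHA2B aside, the highest was the uncharacterised gene AT3G28750, at 16623 ± 1657, followed by SKS13 at 14634 ± 2511 and AT3G01270 at 10993 ± 1512 (SD, n = 4). RALFL8 (AT1G61563), which encodes a RALF-like secreted peptide, had 17492, 9896, 5835 and 9932 per kilobase in replicates 1 to 4. RALFL9 (AT1G61566), a related peptide gene, had 7511, 7354, 8781 and 10194 per kilobase. AGP11 (AT3G01700), an arabinogalactan protein of pollen, had 12002, 14990, 8410 and 5087 per kilobase and was lower in replicates 3 and 4 than in replicates 1 and 2. The Ole e 1 family gene AT5G45880, from the family of the olive pollen allergen, averaged 9043 ± 1513 per kilobase. The 20 highest genes per kilobase had a median coding length of 742.5 nt, against 1720.5 nt for the 20 highest by CPM and 1065 nt over all genes with a coding length. Of these 20 genes, 12 were among the 20 highest by CPM and 18 were among the 20 highest when exon length replaced coding length.

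Families were assigned from RefSeq product names, and their shares of gene counts were compared. Proteins whose product name matched no family rule took 34.1% ± 3.30 of counts (SD, n = 4) over 13271 genes. Kinases were the largest named family, at 6.23% ± 0.407 of counts over 1315 genes, which are 3.95% of all genes. They were led by the receptor kinase gene BUPS1 at 3371 CPM ± 967 and PERK7 at 2429 CPM ± 284. Leucine-rich repeat proteins other than kinases took 4.25% ± 1.95 from 60 genes, of which 5 genes, led by LRX8 to LRX11, gave 97.8%. Their share was 5.38%, 6.36%, 2.195% and 3.05% in replicates 1 to 4. Genes annotated as uncharacterised proteins took 5.71% ± 0.775, led by AT3G28750 and AT5G39880 at 6936 CPM ± 2636.

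Families of pectin enzymes were described next to each other. Pectin methylesterases and their inhibitors, which set how strongly pectin is crosslinked, took 4.07% ± 0.820 from 127 genes, led by VGD1 and AT3G05610 at 6953 CPM ± 1045. The genes of at least 900 nt coding length held 3.00% ± 0.673, and shorter genes held 1.07% ± 0.299. Genes named polygalacturonase, pectate lyase or pectin lyase-like took 3.60% ± 0.727 from 118 genes. They were led by AT3G01270, AT3G07820 at 6926 CPM ± 2350 and PGA4 (AT1G02790) at 3421 CPM ± 1123. Polygalacturonases and pectate lyases cut pectin, but the name pectin lyase-like, as in AT3G07820 and AT5G07430 (2597 CPM ± 940), does not give the activity. The split between this family and the methylesterases follows product names. SKU5-similar and other cupredoxin proteins took 3.39% ± 0.598, and 5 of their 38 genes gave 99.5% of it, led by SKS13 and SKS14 at 4252 CPM ± 768.

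Among the other families, oxidoreductases took 4.16% ± 0.553, led by AT5G19580 and the peroxidase family gene AT5G47000 at 2457 CPM ± 736. Proteases took 2.33% ± 0.159, led by the subtilisin-like gene AT1G66210 at 3371 CPM ± 346 and the carboxypeptidase-like gene scpl36 at 2073 CPM ± 516. Proteins named as glycosyl hydrolases or transferases took 2.08% ± 0.0970, led by AT3G62710 at 4971 CPM ± 1534 and GH9A4 at 1754 CPM ± 397. The beta-galactosidase gene BGAL11, higher at 15088 CPM ± 868, is not in this share, since its product name matched no family rule. Transcription factors took 2.04% ± 0.324, led by MYB120 and the zinc finger gene AT5G58620 at 514 CPM ± 190. ATPases and ion transport proteins took 2.76% ± 0.202, led by AHA8 and the cation exchanger gene CHX23 at 2513 CPM ± 580. Heat shock proteins and chaperones took 2.72% ± 0.453, led by HSP90.1 (AT5G52640), which had 4029, 7391, 3831 and 3494 CPM and was highest in replicate 2, and by HSP70 at 3721 CPM ± 607. The ubiquitin and proteasome family took 3.16%, 2.86%, 9.72% and 3.48%. In that family DAF1 (AT3G62230), an F-box gene, averaged 8635 CPM ± 2770. Without replicate 3, where RHA2B is high, the family's share was 3.17% ± 0.309. Histone genes took 0.0770% ± 0.00508, and ribosomal protein genes took 0.320%, 0.741%, 0.718% and 1.31%.

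Lists of marker genes for the pollen tube and for other tissues were described. They were chosen with earlier results of these data known, so they do not check the label of pollen tube. Of 21 genes for pectin and the wall of pollen tubes, 20 had a count in all 4 libraries, against 15.6% of protein-coding genes. Together the 21 genes took 10.5% ± 2.24 of counts. Their median level was 2281 CPM, against 0.821 CPM over all genes and 2.34 CPM over protein-coding genes. The exception was AGP40, an arabinogalactan protein gene with 29.3, 4.29, 0 and 0 CPM. CALS5, a callose synthase gene, had 1456, 1278, 1528 and 1364 CPM.

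Of 24 receptor and signalling genes, 23 had a count in all 4 libraries, against 12.7% of all genes and 15.6% of protein-coding genes. BUPS1, a receptor-like kinase of the CrRLK1L family that keeps the tube intact, had 4075, 2008, 4045 and 3357 CPM. Its relative ANX2 had 2205, 1925, 1114 and 1804 CPM, and BUPS2 had 203, 276, 1.59 and 159 CPM and was nearly absent from replicate 3. The calcium-dependent kinase gene CPK17 had 2502, 3322, 1636 and 1680 CPM. RALF19, which encodes a peptide ligand of these receptors, had 1638, 1188, 1969 and 915 CPM. PRK8, a receptor-like kinase gene, had 5.17 CPM in replicate 1 and no count in the other 3.

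The list of 14 ion and sugar transport genes took 1.46% ± 0.173 of counts. Of these genes, 12 had a count in all 4 libraries, against 15.6% of protein-coding genes. ACA9, a calcium pump gene, had 1710, 2034, 1458 and 1743 CPM, and the potassium channel gene SPIK had 443, 312, 641 and 360 CPM. The sugar transporter gene STP9 had a count only in replicate 4, at 11.4 CPM. Actin and secretion genes took 0.230% ± 0.0452, led by ADF7, an actin-depolymerizing factor gene, with 299, 947, 161 and 409 CPM. Among 12 pollen transcription factors, MYB120, a regulator of tube maturation, was highest at 2084, 2803, 866 and 964 CPM. All 12 had a count in some library, against 18279 of 26712 protein-coding genes, and WRKY34, AGL94, BZIP18 and AGL104 had none in replicate 3.

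Sperm cells travel inside the tube, and 7 of 10 sperm genes had a count in some library, against 18279 of 26712 protein-coding genes. Their median level was 4.71 CPM, against 2.34 CPM over protein-coding genes. The list took 0.0797%, 0.0573%, 0.0223% and 0.0344% of counts. It holds 10 chosen genes, so transcripts of other sperm genes are not in this share, and it does not measure all sperm RNA. GEX1 and PCR11, 2 of the 10, had a count in all 4 libraries, against 15.6% of protein-coding genes. GEX1, a membrane protein gene of gametes, had 397, 374, 54.1 and 120 CPM, and PCR11 had 327, 145, 169 and 224 CPM. DMP9, HAP2, the fusion protein gene of sperm, MGH3, the male-gamete histone gene, and DUO1, the sperm regulator gene, had counts only in replicates 1 and 2. HAP2 had 15.2 and 12.6 CPM there, MGH3 24.8 and 4.04 CPM, and DUO1 4.83 and 5.05 CPM. By counting error alone, a count of 0 allows up to 4.77 CPM in replicate 3 and 1.48 CPM in replicate 4. DAZ1 had 2.07 CPM in replicate 1 alone, and GEX2, DAZ2 and DMP8 had no count in any library. In bulk RNA, fewer cells of a type and less RNA per cell cannot be told apart.

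The pistil and ovule are the tissue that a semi-in vivo sample could carry over. Of 12 marker genes for them, 8 had a count in some library, against 18279 of 26712 protein-coding genes, and their median level was 7.63 CPM, against 2.34 CPM over protein-coding genes. The list took 0.00324%, 0.0124%, 0.00987% and 0.0157% of counts. SHP2, a floral homeotic gene of the carpel, was the highest, at 3.10, 19.9, 47.7 and 21.2 CPM, and BEL1, AG and STK averaged 17.6, 17.0 and 14.8 CPM. CRC, a carpel gene, and HEC1, HEC2 and HEC3, which act in the transmitting tract, had no count. Of 7 genes of synergid and egg cells, only MYB98, at 6.31 CPM in replicate 2, and EC1.1, at 1.59 CPM in replicate 3, had a count. LRE, EC1.2, EC1.3, EC1.4 and EC1.5 had none.

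Of 10 tapetum genes, GRP17, DYT1 and LAP6 had counts, against 18279 of 26712 protein-coding genes with a count in some library. The tapetum genes AMS, TDF1, MS1, MYB80, LAP5, A6 and A9 had none. GRP17 had 24.7 CPM in replicate 4 alone. None of 8 seed storage genes had a count, which are SESA1 to SESA4, CRA1, CRU2, CRU3 and OLEO1. Of 5 root genes, 4 had a count, which is near that share of protein-coding genes, and together they took 0.00376% ± 0.00255. WOX5, a gene of the root stem cell niche, had none.

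Green-tissue genes varied more than any tube list. They took 0.0374%, 0.0496%, 0.153% and 0.297% of counts in replicates 1 to 4, higher in replicates 3 and 4 than in replicates 1 and 2. LHCB1.3, a chlorophyll-binding protein gene of the light-harvesting antenna, had 29.0, 39.4, 352 and 423 CPM, and RBCS1A, the small subunit of Rubisco, had 18.3, 48.7, 39.8 and 349 CPM. Of the 25 genes, 17 (68%) had a count in all 4 libraries, against 15.6% of protein-coding genes, and RBCS1B had none. Their median level was 38.5 CPM, against 2.34 CPM over protein-coding genes. Without replicate 4 the list took 0.0800% ± 0.0636. LHCB1 and RBCS genes are near-identical copies of each other, and reads they share are not in the counts, so their single values are uncertain. The part that green tissue plays in the values of the tube genes was not tested. Housekeeping genes took 0.155% ± 0.0461, with UBQ10 at 962, 933, 624 and 1366 CPM.

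**Figure D3:**
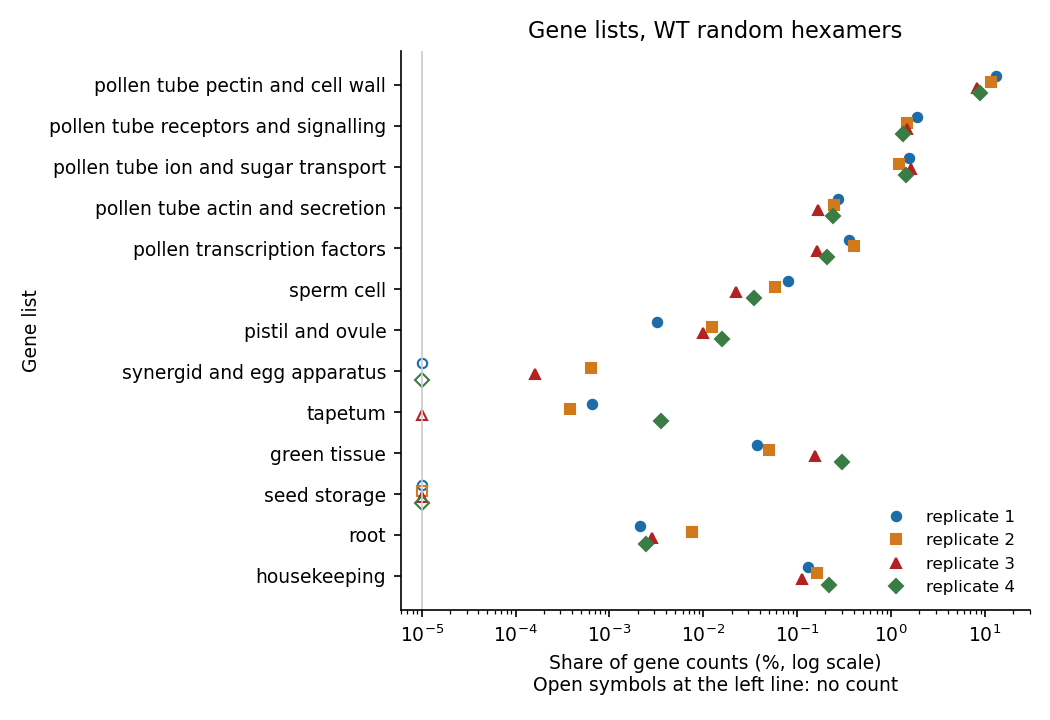
Share of gene counts (%, log scale) of 13 gene lists in each of the 4 WT random-hexamer libraries, with open symbols for lists with no count. The list of pectin and wall genes lies at 8.24% to 13.0%, the sperm list at 0.0223% to 0.0797% and the pistil and ovule list at 0.00324% to 0.0157%, and seed storage genes had no count.

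Gene families that have members known from pollen and members known from other organs were compared by level per length. In 15 families, 51 genes listed as pollen members had a median of 201 CPM per kilobase, and 76 other members had a median of 12.6, against 2.21 over all genes with a coding length. The families and their members were listed with these data known, so the contrast is a description. In 8 of the 15 families the pollen members held over 90% of the family's level per kilobase, and in 13 families over 50%. The highest pollen member was above the highest other member in all 4 libraries in 9 families.

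Among ligands and receptors, RALF19 averaged 4286 ± 1405 per kilobase against 21.4 ± 39.1 for RALF22, a peptide gene known from vegetative tissue. The pollen members held 99.1% ± 1.51 of the level of the RALF genes listed. In the CrRLK1L receptors BUPS1 had 1545, 762, 1534 and 1273 per kilobase, while FERONIA (FER), the family member of vegetative tissue and synergids, had 10.3, 36.3, 72.8 and 20.2 per kilobase. LLG2, a GPI-anchored co-receptor gene, had 491, 269, 74.4 and 172 per kilobase, and LLG1, its vegetative relative, had 1.36, 7.97, 91.0 and 0, so the order of this pair was turned round in replicate 3.

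For the wall and transport proteins, LRX8 averaged 5604 ± 2606 per kilobase and LRX3, the highest vegetative extensin, 73.2 ± 37.4. AHA8 averaged 3227 ± 519 and AHA1, a general proton pump gene, 74.3 ± 44.1. The pollen pumps AHA6 and AHA9 were much lower than AHA8, at 42.2 ± 19.8 and 26.5 ± 15.5. STP10, a sugar transporter gene, averaged 585 ± 235 and STP13 20.1 ± 7.74, while STP6, listed as a pollen member, had no count.

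In the families of actin and its partners, the pollen members held 81.7% ± 18.5 of the level of actin-depolymerizing factors, 73.9% ± 3.98 of that of actins and 46.7% ± 20.4 of that of profilins. ADF7 had 723, 2288, 388 and 987 per kilobase and ADF3, the highest other member, had 8.21, 152, 7.58 and 142, so ADF7 was the higher in 4 of 4 libraries. ACT11 had 225, 102, 348 and 366 per kilobase and ACT2, a vegetative actin gene, had 291, 142, 251 and 210, so ACT11 was the higher in 2 of 4 libraries. PRF4 and PRF2, which encode profilins, averaged 119 ± 107 and 119 ± 114. The poly(A)-binding protein gene PAB5 averaged 274 ± 61.2 and PAB2 213 ± 93.2. RABA4D, a GTPase gene of pollen-tube secretion, averaged 7.07 ± 8.24 with no count in replicates 3 and 4, and RABA4B, its vegetative relative, averaged 32.2 ± 23.4. Closely related actin, profilin and proton pump genes can share reads, which the counts leave out.

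**Figure D4:**
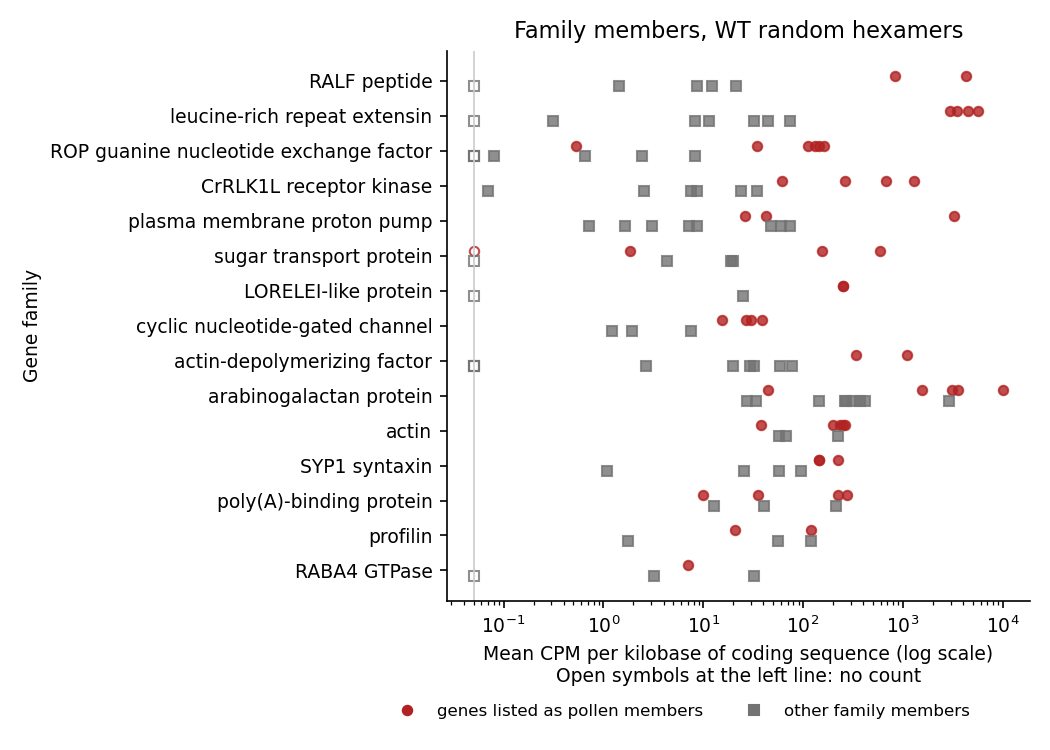
Mean level of each family member (CPM per kilobase of coding sequence, log scale) over the 4 WT random-hexamer libraries, with genes listed as pollen members in red and other members in grey. Families are ordered by the share of the pollen members, which is 99.1% for RALF peptides at the top and 24.2% for RABA4 GTPases at the bottom.

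The spread between the 4 libraries was described by gene. Across 1287 protein-coding genes with a mean of at least 100 CPM, the coefficient of variation (CV, the SD as a share of the mean) had a median of 38.8%. It was above 100% in 32 genes and under 20% in 176. By level, the median CV was 145% for genes at 1 to 10 CPM, 92.2% at 10 to 100, 40.2% at 100 to 1000 and 26.2% at 1000 or more. The CV includes counting error, which is larger at low levels, and its part in this order was not tested. The steadiest gene was AT3G11210, at 187, 190, 193 and 188 CPM (CV 1.39%), followed by the kinase gene MAPKKK5 (CV 4.49%).

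Between pairs of libraries, Spearman's rho across all genes was 0.514 to 0.826, with a median of 0.609 (0.602 among genes of at least 100 CPM), and Pearson's r of log2(CPM + 1) was 0.576 to 0.868, given as a description since genes are not independent replicates. Among genes with at least 100 CPM, 23.3% to 36.6% differed more than 2-fold in a pair of libraries. Of the 1549 genes with at least 50 CPM in each of the other 3 libraries, 110 (7.10%) had no count in replicate 3, and replicate 4 had 10 such genes of 1365 (0.733%). Replicates 1 and 2 had 0 of 1460 and 0 of 1296.

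Of the 32 genes with a CV above 100%, 16 were highest in replicate 4, 10 in replicate 3, 4 in replicate 2 and 2 in replicate 1. The 5 with the largest CV, which include RHA2B, were all highest in replicate 3. FAF1, a regulator of shoot meristem size, had 2.41, 127, 3089 and 18.3 CPM. AT5G03710 had 1.38, 18.2, 759 and 0 CPM, AT3G56570 had 0, 16.4, 462 and 0 CPM, and the ubiquitin ligase gene UPL7 had 6.21, 31.8, 382 and 0 CPM. In each of these 4, counts on the opposite strand made up 24.5% to 59.9% of the reads counted on either strand, whereas in RHA2B they made up 0%. The part that opposite-strand reads play in these values was not tested.

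**Figure D5:**
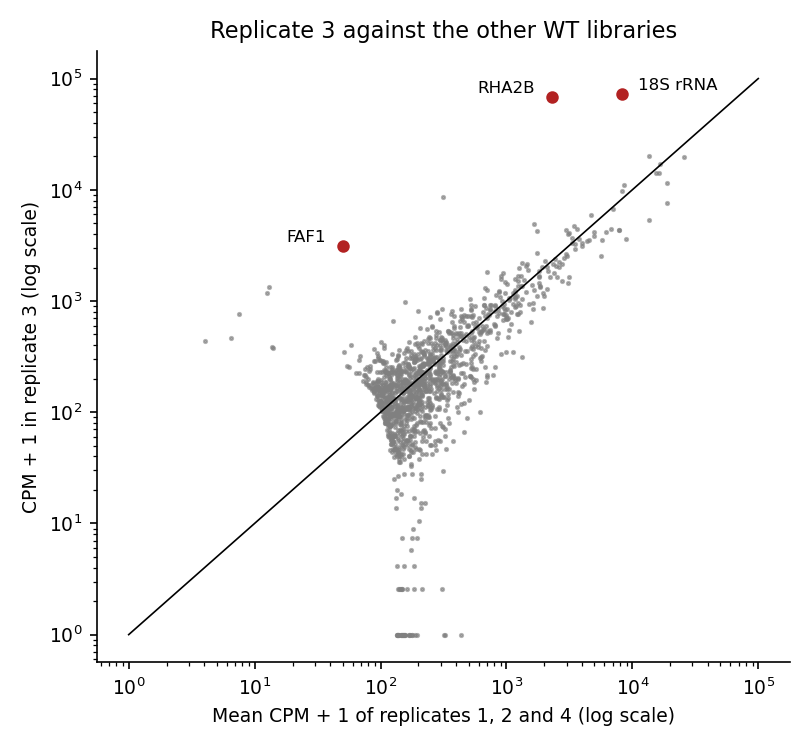
CPM + 1 in replicate 3 against the mean CPM + 1 of replicates 1, 2 and 4, on log axes, for genes with a mean of at least 100 CPM over the 4 libraries, with equality as a line. RHA2B, the 18S rRNA gene AT3G41768 and FAF1 are marked in red, at 68668, 72503 and 3089 CPM in replicate 3, and the row at the bottom holds genes with no count in replicate 3.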

How the data were processed

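Per the labels' protocols, RNA of semi-in vivo pollen tubes was isolated with a PicoPure kit, and libraries were made with an Ovation kit that depletes ribosomal RNA. Per the submitters' processing notes, STAR and genome build TAIR10 were used. Versions and the annotation were not given in the sources used here. The authors deposited raw read counts per gene in 3 strand settings. The first stranded setting was used, and 4 rows that name no gene, 55.1% to 97.3% of reads in WT random hexamers, were left out of library sizes. CPM is counts per 1000000 gene counts. Names, product names, biotypes and lengths came from RefSeq on TAIR10.1, where 32835 of 33323 genes matched. No coordinates were used.

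The members and lists were chosen with earlier results of these data known, and some family rules were adjusted after seeing the annotation and values. Genes named were taken from the 30 highest by CPM, the 20 highest per coding kilobase, the 4 highest and any undetected of each list, the highest of each paralog class, the 5 largest and smallest CVs, and the 2 highest of the 15 largest families. A few more genes were picked once their values were known. Tests were two-sided exact permutation tests on 3 concentration measures in 2 comparisons, with Benjamini-Hochberg adjustment over 6. The primings are paired because the labels say each RNA was divided. Across 11534 genes, the deviations of same-numbered WT libraries of the 2 primings correlated at 0.0593 to 0.179. Apart from the chi-square test of pairs of libraries over genes, no test across genes was made. The concentration measures and the thinning were tested on simulated data; the permutation tests were not. Values were computed with Python 3.11.15, NumPy 2.4.6 and pandas 2.3.3.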

Additional observations from a re-analysis of the deposited data

Results flagged for a closer look

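Among 114 named genes, 19 had 1 library far from the other 3 by Dixon's criterion, as did 3 of 32 list and family shares and 0 of 9 library measures. Chance flags about 1 group in 20, and genes of the largest CV and genes counted in 1 library only are flagged by how they were chosen or by their zeros. Replicate 3 was the separate library for RHA2B (68668 CPM, against 1099 to 4504 in the others), FAF1 (3089 CPM), AT5G03710 (759 CPM), AT3G56570 (462 CPM), UPL7 (382 CPM), the 18S rRNA gene AT2G01010 (8646 CPM, against 137 to 648), PRF4 (113 CPM), LLG1 (46.2 CPM), EXPA7 (28.6 CPM) and EC1.1 (1.59 CPM). It was also low for the kinase family, at 5.62% of counts against 6.39% to 6.46%, and high for the ubiquitin and proteasome family, at 9.72% against 2.86% to 3.48%.

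Replicate 1 stood apart in MGH3 (24.8 CPM), UBC9 (86.2 CPM) and COBL9 (0.690 CPM). Replicate 2 stood apart in HSP90.1 (7391 CPM, against 3494 to 4029), RALF22 (28.8 CPM), MYB98 (6.31 CPM) and the root list (0.00755% of counts, against 0.00214% to 0.00286%). Replicate 4 stood apart in RBCS1A (349 CPM, against 18.3 to 48.7), GRP17 (24.7 CPM) and the uncharacterised gene AT1G75870, which was low there (2239 CPM, against 3651 to 3868).

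Counts on the strand not used in the comparisons held 1 gene at a high level. AT7SL-1 (AT4G02970), an RNA of the signal recognition particle, had a mean of 7924 opposite-strand counts per 1000000 gene counts, with 4414, 2006, 14866 and 10411 in replicates 1 to 4, and a mean of 3.53 CPM on its own annotated strand.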

How the results depend on the processing

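No concentration comparison passed the test, but none could have passed after adjustment. In the priming comparison 4 pairs give an exact permutation p of at least 0.125 and 3 pairs at least 0.250. In the genotype comparison 4 against 4 libraries give at least 0.0286, too large for an adjusted p under 0.05 over these 6 tests. The lack of a passing result therefore says nothing about stability. The difference between random hexamers and oligo(dT) in the share of the 10 most counted genes was -1.29 percentage points, 0.0949 when reads were counted without regard to strand, and -4.10 to 0.489 when 1 replicate was left out. In the share of the 100 most counted genes it was 0.675, 3.61 without regard to strand, -0.699 without structural RNA genes, and -4.21 to 3.30 with 1 replicate left out. In the effective number of genes it was 422, 192 without regard to strand, and 215 to 551 with 1 replicate left out. The cause of these changes was not tested. The paps1-1 minus WT difference was -8.25 to -4.05 points for 10 genes, -15.2 to -7.01 for 100 genes and 1246 to 2497 effective genes with 1 library left out. Without the replicate block, exact p for the priming comparison was 0.686, 0.857 and 0.257. With the replicate block, exact p for the genotype comparison was 0.375, 0.375 and 0.250. The differences were unchanged, at -6.48 and -10.6 points and 1837 genes. The replicate numbers are not stated to pair genotypes. Correlations of same-numbered paps1-1 and WT random-hexamer libraries were 0.283, 0.266, -0.0454 and -0.0845 in replicates 1 to 4.

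Of 121 named genes, 14 moved by over 1.5 times in mean CPM without replicate 3, and 3, 6 and 7 without replicates 1, 2 and 4. TMM (edgeR 4.0.16) and DESeq2 1.42.0 scaling kept the mean over the 4 libraries within 1 SD between libraries for all 121. Both scalings mostly shift libraries against each other, so such a mean can hardly move. This result therefore says little about stability to scaling. Counted without regard to strand, synergid and egg genes took 0.00121% of counts and seed storage genes 9.37e-05%. The number of genes detected per library averaged 11936, and 9966 at 10 counts or more. Gene order per exon kilobase was chosen after seeing the data. Replicate 3 has the least depth, with 3 counts at 4.77 CPM. Thinned to its depth, replicates 1, 2 and 4 still held 13975, 15344 and 9462 genes, against 6043. Of 1549 genes with at least 50 CPM in each other library, 110 had no count in replicate 3. The cause was not tested.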
